A study of Mus musculus with 2 samples.

Results

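The motile cilium axoneme is the microtubule shaft that lets cilia and sperm tails beat. Its genes were described here as a set of 61: gene symbols that begin with Dnah, Dnai, Rsph, Cfap, Tekt or Drc followed by a digit and that had at least 20 UMIs over the barcodes kept. A UMI (unique molecular identifier) counts 1 captured RNA molecule. Of 55487 gene rows, 65 carried such a symbol and 61 reached the count: 15 Dnah, 7 Rsph, 3 Drc, 4 Tekt and 32 Cfap genes. No symbol that begins with Dnai met the rule. Dnah2os (19 UMIs), Tekt3 (18), Rsph6a (12) and Cfap97d1 (5) fell below the limit, and the members nearest to it were Dnah17 and Cfap99 with 78 UMIs each.

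The cells were medullary thymic epithelial cells (mTEC), sorted without surface Pdpn or CD104 from the lo fraction after depletion of CD45+ cells. The thymi came from 6 female mice aged 6 weeks, 2 each of the NOD, BALB/c and C57BL/6 (B6) strains. The labels name no engineered allele and no treatment in any of the 3 strains. Each mouse had its own hashtag antibody, and all 6 shared 1 droplet capture, so mice differ in no other labelled way than strain and hashtag.

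In a beating cilium, a ring of doublet microtubules surrounds a central pair. Dynein heavy chains (Dnah) are the motors that slide neighbouring doublets, radial spokes (Rsph) signal between the central pair and the dyneins, and the nexin-dynein regulatory complex (Drc) links doublets so that sliding becomes bending. Tektins (Tekt) run inside the doublet wall, and the Cfap symbols collect many other proteins of cilia and flagella. The thymic medulla is known to hold mimetic cells, epithelial cells that take on programs of tissues elsewhere in the body, and a ciliated type is one of them.

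After filtering, 2527 of 3447 barcodes were kept and 1706 were assigned to a mouse: 120 and 122 to NOD mice 1 and 2, 413 and 595 to BALB/c mice 1 and 2, and 215 and 241 to B6 mice 1 and 2. The sums per mouse held between 2369670 and 10253848 UMIs, with the NOD mice at the low end, and the median UMIs per cell lay between 13501 and 14692. Cells were placed in types by marker gates, in which a cell needs a UMI of at least 50% of the markers of a type. Of the 1706 cells, 1632 were counted as epithelial. These lay outside the gates of non-epithelial types and either were placed in the ciliated gate or had at least 2 of 4 epithelial markers. The ciliated gate used 13 genes, none of them among the 61, and 85 assigned cells were placed in it, with 1536 other epithelial cells to set against them. A further 11 assigned epithelial cells passed the ciliated gate but were placed elsewhere, and they are in neither group. Of the defining markers, Sntn was detected in 94.1% of ciliated cells and 0.260% of other epithelial cells, Tmem212 in 96.5% and 0.586%, and Foxj1, the master regulator of motile ciliogenesis, in 96.5% and 8.53%. Other markers of the gate separated less: Trp73 and Mcidas were detected in 63.5% and 11.8% of ciliated cells, and Tppp3 and Mlf1 in 18.0% and 12.4% of other epithelial cells. The gate was set by these same markers, so their detection follows from it and is no separate support for the name. The name ciliated rests on markers the set does not contain.

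The 61 genes were read mostly in the ciliated cells. They made up 1.40% and 1.32% of all UMIs in ciliated cells of NOD mice, 1.06% and 1.23% in those of BALB/c mice and 1.75% and 1.54% in those of B6 mice. In other epithelial cells the same shares were 0.0373% and 0.0435% in NOD mice, 0.0466% and 0.0469% in BALB/c mice and 0.0535% and 0.0557% in B6 mice. The ranges lay far apart in every mouse. A ciliated cell had UMIs of 45 members at the median (19 to 59), and of 25 after each cell was thinned to 4000 UMIs, against medians between 0 and 3 in the other gates at that depth. Of the member UMIs in the 85 ciliated and the 1536 other epithelial cells together, 67.3% lay in the ciliated cells. The 11 cells that passed the ciliated gate but were placed elsewhere are left out of these shares. For 21 members the share was over 90%, for 28 it was 50 to 90%, and for 12 it was 50% or less.

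Sums per mouse were compared between ciliated and other epithelial cells with edgeR's quasi-likelihood test, with the mouse as block and Benjamini-Hochberg adjustment over all genes tested. Of the 57 members with enough counts, 54 were higher in ciliated cells at an adjusted p below 0.05, 0 were lower and 3 passed in neither direction. Over all 11595 genes tested, 16.7% were higher and 15% were lower. The count filter keeps members read in ciliated cells alone, so this balance of higher to lower can follow in part from the filter. With no filter on low counts, 56 of 61 members were higher and 1 was lower. The same edgeR test gave 1 lower member at an unadjusted p below 0.05, Tekt5, which DESeq2 called. The median log2 fold change of the 57 members was 6.27, against -0.10 over all genes tested. For 54 of the 61 members, the value in every mouse's ciliated cells exceeded the values in all mice's other epithelial cells. The share of all genes that separate in the same way is not given here, so this count has no background beside it.

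**Figure D1:**
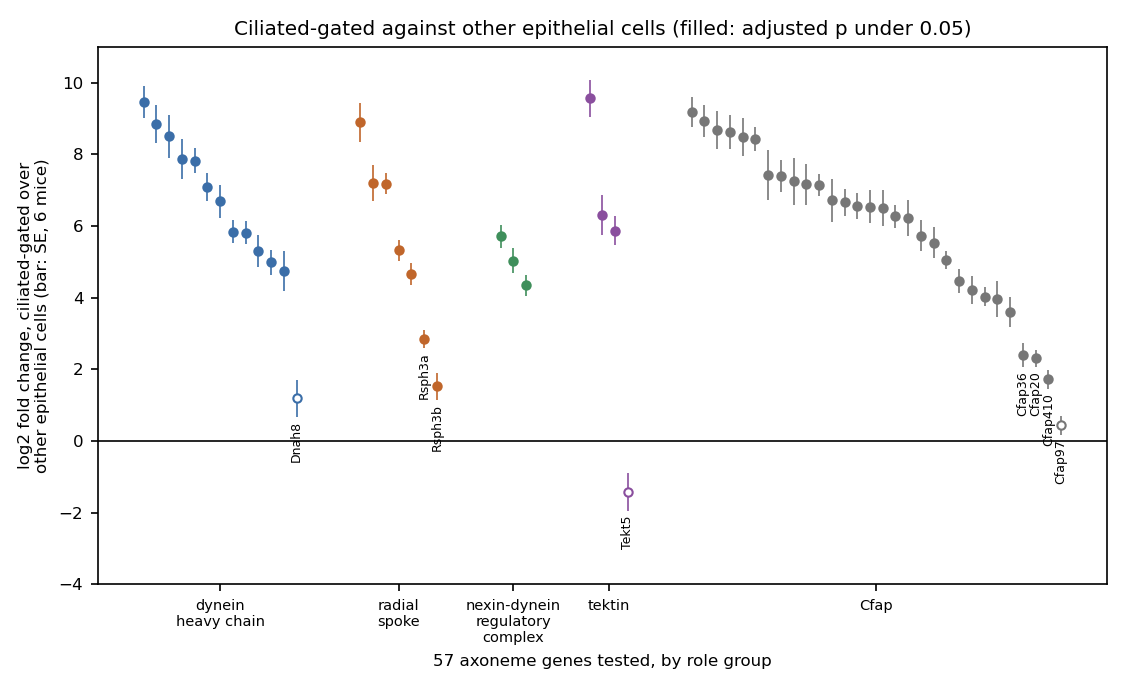
Log2 fold change of the 57 tested axoneme genes in ciliated cells over other epithelial cells (y axis), grouped by role, with bars of 1 SE; filled points passed an adjusted p of 0.05. All but Tekt5, Cfap97 and Dnah8 passed, and the highest were Tekt1, Dnah7a and Cfap161.

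Among the dynein heavy chains, 12 of 13 tested were higher. Dnah12, an inner arm heavy chain, ranged over the 6 mice between 585 and 894 CPM (UMIs per 1000000 UMIs of the pool, median 788) in ciliated cells, against 0 to 9.86 CPM (median 1.75) in other epithelial cells, a log2 fold change of 8.51 ± 0.60 (SE, n = 6 mice; edgeR adjusted p = 8.9e-07). The inner arm genes Dnah6 (6.69 ± 0.47), Dnah3 (8.86 ± 0.53) and Dnah7a (9.47 ± 0.45) rose with it on the log2 scale. Dnah7a lies on chromosome 1, as do its near-identical copies Dnah7b and Dnah7c, and reads of the 3 may have been split between them. The outer arm of respiratory cilia is built from Dnah5, Dnah9 and Dnah11, and all 3 rose. Dnah9 had 277 to 968 CPM (median 430) in ciliated cells and 8.0 to 25.3 CPM (median 10.6) in other epithelial cells. Dnah11 had 176 to 296 CPM (median 264) in ciliated cells and 2.99 to 7.76 CPM (median 4.28) in other epithelial cells. For both genes no value of one group reached the other.

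Dnah5 differed from its outer arm partners outside the ciliated cells. It had 401 to 835 CPM (median 549) in ciliated cells and 3.11 to 51.4 CPM (median 29.9) in other epithelial cells, a log2 fold change of 4.75 ± 0.55. Just 57.7% of its UMIs in ciliated and other epithelial cells together lay in the ciliated cells, against 73.3% for Dnah9 and 81.2% for Dnah11. Dnah1, an inner arm heavy chain known from both sperm tails and airway cilia, rose by 7.10 ± 0.39. Dnah8, known from the sperm tail, did not pass. It had 28.5 to 116 CPM in ciliated cells and 7.47 to 54.2 CPM in other epithelial cells, and these ranges overlap (log2 fold change 1.19 ± 0.52, edgeR adjusted p = 0.108). With ciliated cells that passed no other gate, which leaves 4 mice since B6 mouse 2 and NOD mouse 2 then have 0 ciliated cells, its value was -0.44, also short of the threshold. Dnah17 had 0 UMIs in ciliated cells, which allows up to 3 in 2099835 by counting error alone, and 42 in other epithelial cells. Dnah14 had 8 UMIs in ciliated cells and 58 in other epithelial cells, and neither gene had enough counts for a test.

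All 7 radial spoke genes tested rose, although not to the same degree. Rsph1, a protein of the spoke head, had 294 to 1038 CPM (median 526.2) in ciliated cells and 9.71 to 22.4 CPM (median 11.7) in other epithelial cells, a log2 fold change of 5.33 ± 0.30. The head genes Rsph4a (7.21 ± 0.50) and Rsph9 (4.66 ± 0.30) rose too. Rsph14 had 76 UMIs in ciliated cells and 1 in all other epithelial cells. The spoke stalk genes Rsph3a (2.84 ± 0.25) and Rsph3b (1.52 ± 0.37; edgeR adjusted p = 0.0082) rose least, they are near-identical copies whose reads may have been split, and the Rsph3b values of the 2 groups overlap. Rsph3b lost its call with ciliated cells of 4 mice that passed no other gate (0.90).

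The 3 nexin-dynein genes rose in ciliated cells. Drc1, a scaffold of the nexin link, had 192 to 323 CPM (median 258) in ciliated cells and 1.94 to 12.7 CPM (median 4.34) in other epithelial cells (log2 fold change 5.72 ± 0.32). The log2 fold changes of Drc3 and Drc7 were 4.35 ± 0.29 and 5.04 ± 0.34. Tektins split: Tekt1, Tekt2 and Tekt4 rose, and Tekt5 did not. Tekt1 had 180 to 409 CPM (median 344) in ciliated cells and 0 to 0.837 CPM (median 0.291) in other epithelial cells, and its log2 fold change of 9.57 ± 0.52 was the highest of the 57. Tekt4 had 171 to 314 CPM (median 196) in ciliated cells and 0 to 6.73 CPM (median 2.06) in other epithelial cells. Tekt5, a tektin known from the sperm flagellum, had 0 to 36.1 CPM (median 6.80) in ciliated cells and 13.2 to 45.3 CPM (median 27.8) in other epithelial cells. Its log2 fold change was -1.42 ± 0.54 (edgeR adjusted p = 0.0666), and leaving out BALB/c mouse 2, which held the highest ciliated value, made it a call at -2.46.

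Of the 30 Cfap genes tested, 29 rose. Cfap299, listed first by level in ciliated cells, had 595 to 1411 CPM (median 795) there and 6.58 to 16.3 CPM (median 7.82) in other epithelial cells (log2 fold change 6.57 ± 0.36); part of its locus overlaps the gene Gm11111 on the same strand. Cfap44, a protein that tethers the inner arm dynein head, had 343 to 551 CPM (median 478) in ciliated cells and 0.445 to 4.14 CPM (median 0.634) in other epithelial cells (8.67 ± 0.53). Its partner Cfap43 rose by 5.73 ± 0.44 and overlaps Itprip on the same strand. The groups did not overlap for any of these 3 genes. Cfap61 (7.15 ± 0.30), Cfap70 (7.40 ± 0.45), Cfap126 (6.27 ± 0.32), Cfap54 (6.22 ± 0.50) and Cfap47 (5.53 ± 0.43) rose as well; Cfap70 is linked to the outer dynein arm and Cfap126 (Flattop) to the placing of basal bodies.

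Several Cfap genes were also read widely outside the ciliated cells. Cfap298, a dynein arm assembly factor, had 446 to 818 CPM (median 604) in ciliated cells and 32.3 to 44.5 CPM (median 34.9) in other epithelial cells (log2 fold change 4.03 ± 0.26). Cfap20, which sits at the junction between the tubules of a doublet, rose by 2.31 ± 0.24, Cfap36 by 2.41 ± 0.34, and Cfap410, a protein linked to the primary cilium, by 1.72 ± 0.28 on the log2 scale. For these 3 genes 25.2%, 29.2% and 19.8% of the UMIs in ciliated and other epithelial cells together lay in the ciliated cells. Cfap97 did not pass (0.44 ± 0.27, edgeR adjusted p = 0.239), with 19.9 to 50.4 CPM in ciliated cells and a median of 25.5 CPM in other epithelial cells. Cfap157 (76 UMIs in ciliated and 32 in other epithelial cells) and Cfap58 (58 and 9) had too few counts for the test.

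Of the 85 ciliated cells, 42 also passed another marker gate, 4 of them the tuft gate, and 2 had a UMI of Ptprc (CD45). Ciliated cells were deeper than the average cell, with medians per mouse between 19010.5 and 58537.5 UMIs. Markers of other types were present in them: the 12 tuft markers summed to 60.5 to 1110 CPM over the 6 mice and the 8 B or plasma cell markers to 27.1 to 4989 CPM, against 8007 to 11421 CPM for the 13 ciliated markers. The part of these cells or their RNA in the results was not tested. Under every alternative tried, 54 to 56 members were higher. In the fit of 4 mice on ciliated cells that passed no other gate, 52 of the 54 calls were kept, 2 were not made and 2 were gained. All 54 calls held when any mouse was left out. One cell of B6 mouse 2 stood among the other epithelial cells with UMIs of 36 members and of 6 of the 13 ciliated markers, 1 short of the gate, and all 54 calls held without it.

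Genes that work with the 61 rose with them. Of 66 tested genes on 5 lists of cilium genes, 61 were higher in ciliated cells, 0 were lower and 5 did not pass. All 10 central apparatus genes rose, among them Spag17 (9.31 ± 0.55) and Hydin (8.19 ± 0.43), and so did all 10 genes of dynein docking and the ruler that spaces the arms, such as Ccdc39 (7.98 ± 0.48). Of 12 assembly factors and light chains, 11 rose, led by Zmynd10 (9.46 ± 0.54), and Pih1d1 did not pass (-0.20 ± 0.37). All 23 genes of intraflagellar transport and of cilia in general rose, between 1.18 (Bbs2) and 5.45 (Nek10) on the log2 scale with a median of 2.34, against medians of 7.03 for the central apparatus and 6.5 for docking and the ruler. Of 11 regulators of multiciliated cells, 7 rose: Deup1 (8.54 ± 0.47) and Ccno (5.66 ± 0.63), which act in centriole amplification, Ccdc78, Plk4, Myb and the RFX factors Rfx2 (3.51 ± 0.38) and Rfx3 (2.19 ± 0.34). E2f4 (-0.61 ± 0.40), E2f5 (0.39 ± 0.31), Tfdp1 (-0.71 ± 0.28) and Rfx1 (0.88 ± 0.48) did not pass.

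RFX factors bind the X-box, a palindrome often found close to the start of cilium genes, so the letters of 1 arm of it, GTTGCTA, were searched on both strands in RefSeq promoters (GRCm38.p6, 250 bases before to 50 after each start). Promoters were at hand for 50 of the 61 genes. The arm was found in 20 of the 50 (40%), against 4.28% of 27025 genes and 15 of 60 genes (25%) on the pathway lists. In 17 of the 20 it lay within 65 bases of the start. The second form of the arm, GTTGCCA, was in 12 of the 50 (24%) against 5.02% of all genes, and the full palindrome (GTTNCC and GGNAAC with 2 free bases between them) in 1 (2%) against 0.529%. The forkhead letters TGTTTAC and TGTTTGC, of the kind FOX factors bind, were in 3 (6%) and 5 (10%) of the 50 against 4.05% and 5.76% of all genes. The motif forms and the window were chosen after matches had been seen, a match is not a bound site, and the search says nothing of the factors.

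Below are bases before the start, 5′ to 3′ on the gene's strand, with GTTGCTA or its reverse complement TAGCAAC in capitals. The first 5 genes are strongly ciliated and carry the arm close to the start, within the last 120 bases. Dnah7a, chr1:53706785-53706904, minus strand:
Dnah7a: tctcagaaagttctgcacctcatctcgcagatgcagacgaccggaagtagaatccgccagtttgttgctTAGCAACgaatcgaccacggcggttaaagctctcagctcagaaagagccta
Rsph14, chr10:75032554-75032673, minus strand:
Rsph14: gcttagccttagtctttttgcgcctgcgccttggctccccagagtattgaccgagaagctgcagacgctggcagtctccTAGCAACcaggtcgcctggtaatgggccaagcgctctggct
Cfap44, chr16:44394679-44394798, plus strand:
Cfap44: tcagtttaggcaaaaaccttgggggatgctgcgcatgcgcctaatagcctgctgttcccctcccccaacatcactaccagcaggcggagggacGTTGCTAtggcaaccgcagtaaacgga
Dnah6, chr6:73221632-73221751, minus strand:
Dnah6: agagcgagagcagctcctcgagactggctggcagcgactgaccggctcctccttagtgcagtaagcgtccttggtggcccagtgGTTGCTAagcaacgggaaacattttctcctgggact
Cfap45, chr1:172521010-172521129, plus strand:
Cfap45: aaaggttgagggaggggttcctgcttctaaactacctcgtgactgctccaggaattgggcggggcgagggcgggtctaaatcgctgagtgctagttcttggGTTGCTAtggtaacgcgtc
The other two genes carry it farther out: Dnah5, read in tuft cells as well, at 108 bases before the start, and Tekt5, not higher in ciliated cells, at 235. Dnah5, chr15:28203616-28203765, plus strand:
Dnah5: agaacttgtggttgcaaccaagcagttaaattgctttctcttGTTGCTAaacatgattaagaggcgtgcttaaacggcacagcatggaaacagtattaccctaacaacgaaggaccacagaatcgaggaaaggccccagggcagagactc
Tekt5, chr16:10395456-10395705, minus strand:
Tekt5: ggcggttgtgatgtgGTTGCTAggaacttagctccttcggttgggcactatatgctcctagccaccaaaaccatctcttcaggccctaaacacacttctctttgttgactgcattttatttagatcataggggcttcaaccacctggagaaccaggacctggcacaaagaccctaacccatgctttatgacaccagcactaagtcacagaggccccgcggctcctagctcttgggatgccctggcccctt
In the first 5 the arm begins between 19 and 51 bases before the start. The genes shown were picked as examples, and position does not sort the 20 genes by cell type: Dnah14, Cfap57, Drc3, Drc1 and Dnah7b carry the arm within 65 bases and were also read outside ciliated cells, while Cfap36, which rose in ciliated cells, carries it farther out.

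**Figure D2:**
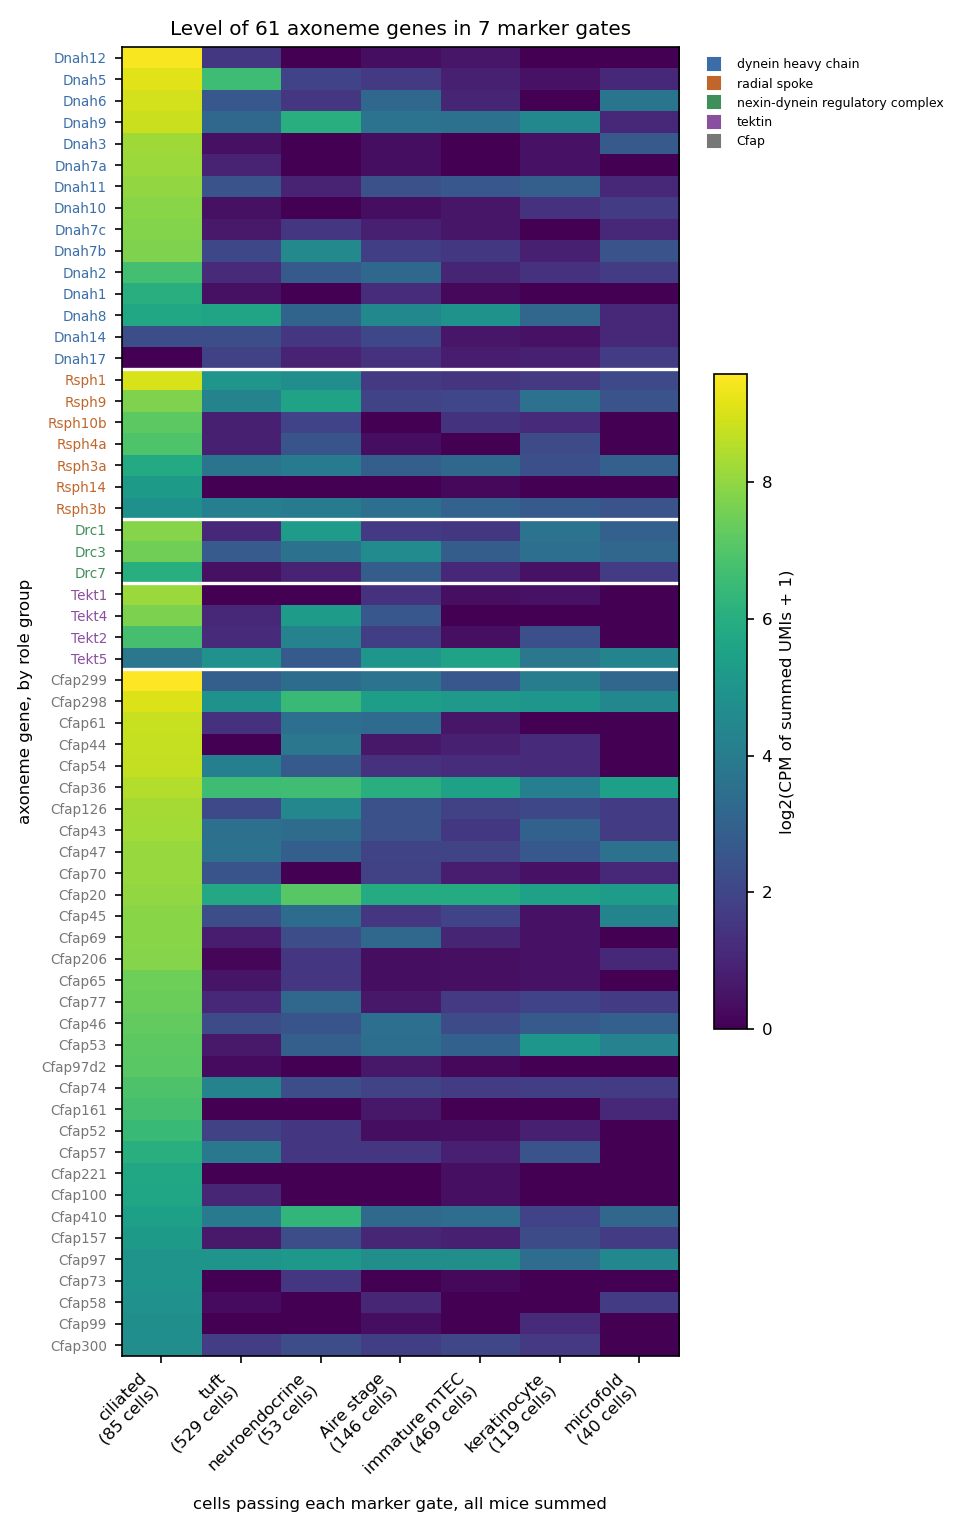
Level of the 61 axoneme genes (rows, by role) in cells of 7 marker gates (columns), as log2(CPM + 1) of the summed counts of assigned cells. Most rows are bright in the ciliated column alone, and Dnah5, Rsph1, Dnah8, Tekt4, Drc1 and Cfap410 are among those with signal in another gate.

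Tuft cells, chemosensory epithelial cells that carry microvilli rather than motile cilia, held part of the set. Tuft-gated cells were set against the remaining non-ciliated epithelial cells in the same mice. Of 20 members tested, 10 were higher and 1 lower, against 21.4% higher and 24.4% lower of 12047 genes tested. The count filter keeps members read in tuft cells alone, so the balance of higher to lower can follow in part from the filter. Dnah5 had 17.7 to 122 CPM (median 76.8) in tuft cells and 0.532 to 6.77 CPM (median 1.34) in the remaining cells, a log2 fold change of 5.34 ± 0.41 (SE, n = 6 mice; edgeR adjusted p = 9.1e-06). Rsph1 had 23.4 to 102 CPM (median 34.9) in tuft cells and 2.33 to 12.3 CPM (median 3.26) in the remaining cells (3.07 ± 0.43, adjusted p = 0.00033). No tuft value of either gene fell among the values of the remaining cells.

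Further members rose in tuft cells at lower levels. Cfap54 and Cfap74, whose Chlamydomonas counterparts belong to a projection of the central pair, rose by 2.98 ± 0.61 and 2.81 ± 0.34. Cfap54 had 0 CPM in the tuft cells of NOD mouse 1 and 9.23 to 30.3 CPM in those of the other mice, against 0 to 5.97 CPM in the remaining cells. Cfap74 had 7.07 to 26.9 CPM in tuft cells and 0 to 4.78 CPM in the remaining cells. Dnah8 (1.72 ± 0.27), Cfap47 (1.32 ± 0.31) and Cfap36 (0.94 ± 0.15) also rose, as did Cfap43, Rsph3a and Rsph3b, by 0.78 to 0.96. Those last 3 lost the call without some mice: Cfap43 without either BALB/c mouse, Rsph3b without either B6 mouse or BALB/c mouse 1, and Rsph3a without any mouse but NOD mouse 1. Drc3 fell by 1.10. The highest values of Dnah14 (3.95 CPM) and Dnah17 (2.60 CPM) were in tuft cells, from few UMIs.

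Ciliated markers stayed near 0 in these tuft cells: of 529 cells, 0 had a UMI of Sntn, which allows up to 0.567% of cells, 0.189% had Ccdc153, 0.189% Tmem212 and 2.46% Foxj1, while Tppp3 (32.7%) and Mlf1 (22.1%) were also read there. Over all passing barcodes, 30% of tuft cells had a UMI of Dnah5 at a median depth of 14801.5 UMIs, against 2.63% of myeloid or dendritic barcodes at 32059.5 UMIs and 0.781% of thymocyte barcodes at 4613.5 UMIs. Rsph1 was less exclusive: it was in 31.8% of tuft, 21.1% of myeloid or dendritic and 5.47% of thymocyte barcodes. One tuft cell of BALB/c mouse 2 held 207 of the 845 Dnah5 UMIs in assigned tuft cells, and without it Dnah5 kept its call.

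**Figure D3:**
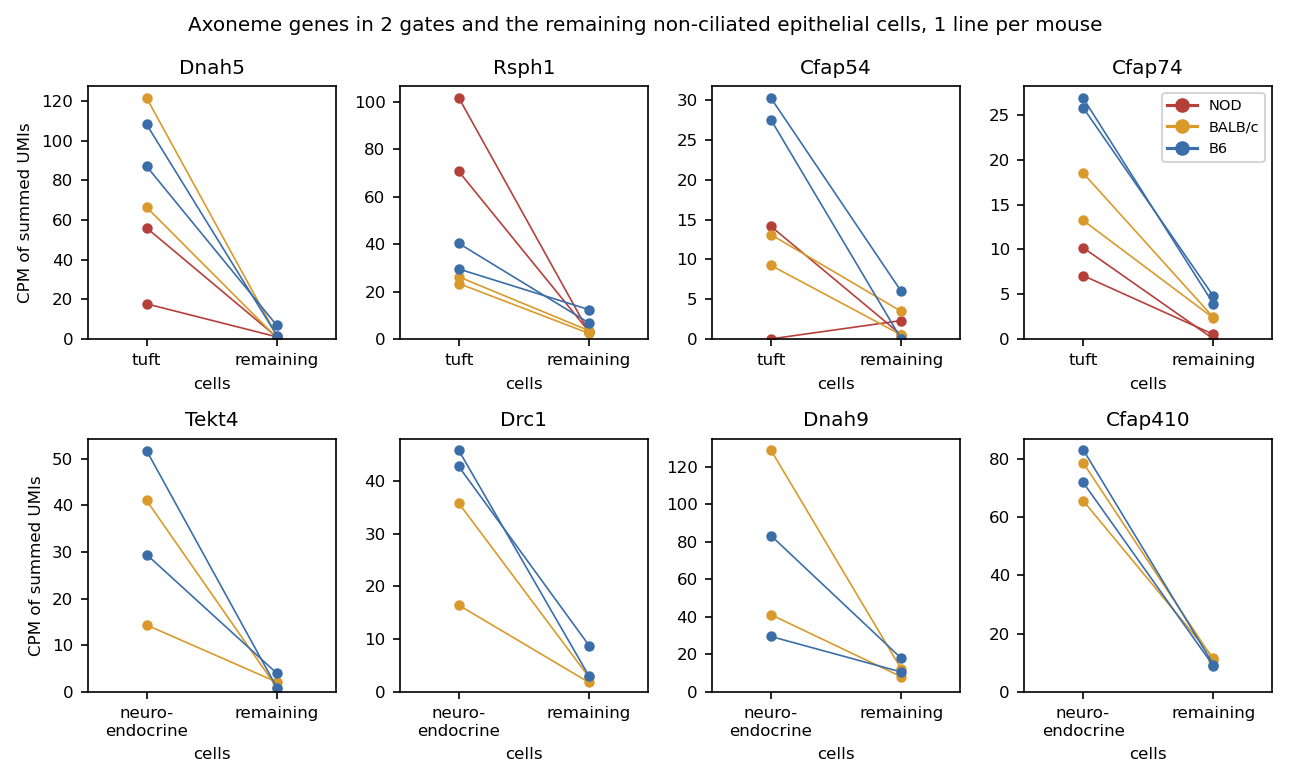
Level in CPM of Dnah5, Rsph1, Cfap54 and Cfap74 in tuft cells and in the remaining non-ciliated epithelial cells (top), and of Tekt4, Drc1, Dnah9 and Cfap410 in neuroendocrine cells and in the remaining cells (bottom), with 1 line per mouse. Levels are higher in the named cells of every mouse drawn, except for Cfap54 in NOD mouse 1, which is at 0 in tuft cells.

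Neuroendocrine cells, hormone-secreting epithelial cells, also held members of the set. Only the BALB/c and B6 mice had enough of these cells to be tested, out of 53 cells over all 6 mice. Of 25 members tested, 8 were higher and 3 lower than in the remaining cells, against 9.42% and 14.1% of 12117 genes. The remaining cells include the tuft cells. With tuft cells left out, a choice made after these results, 14 members were tested. The same 8 and also Rsph1 and Cfap36 were higher and 0 were lower (background 10.9% and 14.1%). The count filter keeps members read in neuroendocrine cells alone, and Dnah5 and Dnah8 no longer reached it. This balance of higher to lower can therefore follow from the filter. Tekt4 had 14.3 and 41.1 CPM in neuroendocrine cells of BALB/c mice and 29.5 and 51.8 CPM in those of B6 mice, against 2.06 and 0.875 CPM in remaining cells of BALB/c mice and 3.95 and 0.877 CPM in those of B6 mice (log2 fold change 4.0 ± 0.66, n = 4 mice, edgeR adjusted p = 0.00083). Drc1 had 35.8 and 16.4 CPM in neuroendocrine cells of BALB/c mice and 45.8 and 42.8 CPM in those of B6 mice, against 2.74, 1.75, 2.96 and 8.77 CPM in the remaining cells of the same mice (2.96 ± 0.51). All 4 mice moved the same way for both genes, with no overlap.

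Dnah9 had 129 and 41.1 CPM in neuroendocrine cells of BALB/c mice and 29.5 and 83.3 CPM in those of B6 mice, against 12.2, 7.98, 10.5 and 17.8 CPM in the remaining cells of the same mice (2.18 ± 0.37). Cfap410 had 65.7 to 83.3 CPM in neuroendocrine cells and 8.88 to 11.6 CPM in the remaining cells (2.67 ± 0.30, edgeR adjusted p = 5.3e-05). Over all neuroendocrine cells it had 78.7 CPM, above the 41.9 CPM of the ciliated cells, a comparison of 2 sums with no test. Dnah7b, Rsph9, Cfap20 and Cfap298 rose by 1.24 to 2.52, and Dnah5 (-4.10 ± 0.55), Dnah8 (-2.38 ± 0.68) and Tekt5 (-2.05 ± 0.55) were lower against remaining cells that include tuft cells. None of these 3 passed with tuft cells left out, where Tekt5 stood at -1.80 (edgeR adjusted p = 0.0523) and Dnah5 and Dnah8 had too few counts for the test. Dnah5 had 0 to 6.55 CPM (median 1.13) in neuroendocrine cells, where its outer arm partner Dnah9 was higher. Rsph1 had 14.3 to 32.9 CPM (median 27.2) in neuroendocrine cells and 9.40 to 22.4 CPM (median 14.2) in the remaining cells (0.49, edgeR adjusted p = 0.459), and it was higher with tuft cells left out (2.34 ± 0.55, edgeR adjusted p = 0.0125).

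Some ciliated markers were read in the neuroendocrine cells and others were not. Fam183b was detected in 83.0% of the 53 cells and Foxj1 in 24.5%, while Sntn, Ccdc153, Lrrc23 and Mcidas had 0 UMIs, which allows up to 5.66% of cells with a UMI of each. Dnah12, prominent in ciliated cells, also had 0 UMIs there. Leaving out B6 mouse 1 or 2, or a BALB/c mouse, ended the calls of Dnah7b, Rsph9, Cfap298, Tekt5 or Dnah8, and the other 6 calls held whichever mouse was left out.

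Of the other gates, 4 had enough cells for a test, and the enterocyte-hepatocyte, muscle and cycling gates (12, 12 and 17 cells) did not. In keratinocyte-gated cells, 1 of 15 members tested was higher (Drc1, 1.71 ± 0.49) and 5 were lower, Rsph1 (-2.67 ± 0.71), Cfap410, Cfap36, Dnah8 and Cfap97, against 20.2% higher and 22.3% lower over all genes. In immature mTEC, 0 of 15 were higher (1 at an unadjusted edgeR p below 0.05, 0 by DESeq2) and 2 were lower, Rsph1 (-2.94 ± 0.40) and Cfap36 (-0.65 ± 0.17), against 17.1% and 18.1%. In cells at the stage of Aire, the regulator of promiscuous gene expression in mTEC, Drc3 (1.96 ± 0.31) and Dnah6 (1.42 ± 0.44) were higher and Rsph1 (-2.57 ± 0.46) was lower of 14 tested, against 15.2% and 15.3%. In microfold-gated cells (3 mice) 0 of 23 were higher (1 at an unadjusted edgeR p below 0.05, 0 by DESeq2) and 2 were lower, Dnah5 (-4.89 ± 0.90) and Dnah9 (-3.56 ± 1.22), against 8.8% and 10.7%. The remaining cells of each of these fits include the tuft cells, where Rsph1, Dnah5 and Dnah8 are high, and 8 of these 13 calls were not made without them. With tuft cells left out, Cfap410, Cfap36, Dnah8 and Cfap97 stayed lower in keratinocyte-gated cells and Drc1 did not pass (1.15). In immature mTEC both calls were gone, Dnah8 (0.93 ± 0.28) and Tekt5 (0.72 ± 0.24) were higher and Drc3 (-1.40 ± 0.36) was lower. At the Aire stage Drc3 (1.73 ± 0.33) stayed higher and Cfap36 (0.50 ± 0.16) was higher too, and in microfold-gated cells 0 of 8 members tested passed, also at an unadjusted edgeR p below 0.05. Rsph1 had too few counts for a test in those keratinocyte, immature mTEC and Aire stage fits. Over all genes without tuft cells, 19.8% were higher and 21.8% lower in keratinocyte-gated cells, and 17.3% and 19.5% in immature mTEC. The same shares were 11.6% and 12.3% at the Aire stage and 7.46% and 5.51% in microfold-gated cells. Leaving out single mice ended the calls of Drc1 (BALB/c mouse 1) and Cfap97 (BALB/c mouse 2 or NOD mouse 2) in keratinocyte-gated cells, of Cfap36 in immature mTEC (either BALB/c mouse), of Dnah6 at the Aire stage (any of 4 mice) and of Dnah9 in microfold-gated cells (any of the 3). Tekt5 had its highest level in immature mTEC (45.2 CPM).

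**Figure D4:**
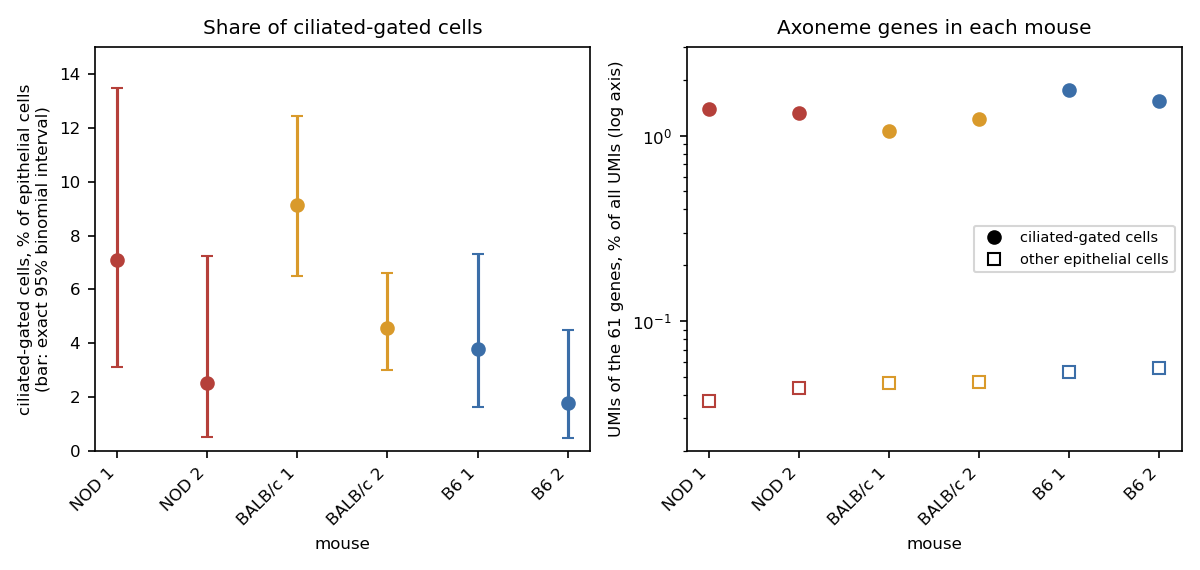
Left, share of epithelial cells in the ciliated gate by mouse, with exact 95% binomial intervals; right, axoneme genes as a percent of all UMIs in ciliated and in other epithelial cells (log axis), 1 point per mouse. Mice of a strain differ in the left panel as much as strains do, and the ciliated points lie above 1% in all 6 mice.

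Between strains, the ciliated share was compared first. It was 7.08% and 2.54% of epithelial cells in NOD mice, 9.14% and 4.56% in BALB/c mice and 3.77% and 1.78% in B6 mice. The means were 4.81 ± 3.21% in NOD, 6.85 ± 3.24% in BALB/c and 2.78 ± 1.41% in B6 mice (SD, n = 2 each). The 11 cells that passed the ciliated gate but were placed elsewhere count among the epithelial cells here and not as ciliated. A two-sided exact permutation test over 90 arrangements of the mice gave p = 0.4, where the smallest p possible is 0.0667. Exact 95% binomial intervals reached from 0.527 to 7.25% in NOD mouse 2 (3 cells) and from 6.48 to 12.4% in BALB/c mouse 1 (36 cells); these and all other intervals cover counting error only.

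Within ciliated cells, 0 of 55 members tested passed between strains, by edgeR and by DESeq2. At an unadjusted p below 0.05, edgeR gave 2 higher and 12 lower for NOD against B6, 0 higher and 14 lower for BALB/c against B6, and 2 higher and 1 lower for NOD against BALB/c. Of 5628 genes tested, 1.53% were higher and 0.462% lower in NOD than in B6 mice, 1.97% and 1.12% in BALB/c than in B6 mice, and 0.0888% and 0.0711% in NOD than in BALB/c mice. The members' median log2 fold changes were -0.32 for NOD against B6, -0.52 for BALB/c against B6 and 0.06 for NOD against BALB/c, and the lowest adjusted p of a member was 0.0534. The NOD and B6 sums rest on 11 and 12 ciliated cells.

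Over all epithelial cells, which mix the ciliated cells' share with levels in other types, NOD mice differed from B6 mice in 6 of 60 members: Tekt5 (1.26 ± 0.32) and Dnah8 (1.18 ± 0.23) were higher, and Dnah14 (-3.41 ± 0.98), Cfap52 (-2.50 ± 0.65), Rsph9 (-1.94 ± 0.39) and Rsph3b (-1.19 ± 0.32) were lower. Over 15878 genes, 12.4% were higher and 12.2% lower in that contrast, so the members stand at or under the background. The sums over all epithelial cells also hold the 11 cells that passed the ciliated gate but were placed elsewhere. BALB/c against B6 gave 0 members by edgeR and by DESeq2 (8 at an unadjusted edgeR p below 0.05; background 4.34% and 4.19%). NOD against BALB/c gave Dnah5 alone (-1.08 ± 0.22; background 3.15% higher and 4.16% lower), a call that ended without the tuft cell of 207 UMIs and without the cell of 36 members. Each of these 7 calls was lost in at least 1 fit that left out a mouse.

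Without the ciliated cells, more members passed. NOD mice differed from B6 mice in 12 of 35 members, with 2 higher and 10 lower, against a background of 15.3% higher and 15.9% lower. Dnah5 had 5.49 and 3.11 CPM in NOD mice, against 51.4 and 34.9 CPM in B6 mice (-3.23 ± 0.45, edgeR adjusted p = 0.0041), with 25 and 43.7 CPM in BALB/c mice. Cfap74 had 0.844 and 1.33 CPM in NOD mice, against 14.6 and 12.2 CPM in B6 mice (-3.52 ± 0.45). Rsph9 had 2.95 and 1.78 CPM in NOD mice, against 13.2 and 20.7 CPM in B6 mice (-2.75 ± 0.42). Dnah8 ran the other way, with 35.0 and 54.2 CPM in NOD mice, against 7.47 and 13.5 CPM in B6 mice (2.14 ± 0.32, edgeR adjusted p = 0.0041). The 2 mice of a strain lay on the same side in each case.

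Those 4 calls and those of Cfap45 (-3.73 ± 0.60), Cfap54 (-2.57 ± 0.48) and Dnah6 (-1.98 ± 0.41) held whichever mouse was left out. The calls of Tekt5 (1.19), Dnah12 (-4.56), Tekt4 (-2.80), Rsph3b (-1.44) and Rsph1 (-0.78) did not. A fit without 1 mouse leaves a strain with 1 animal, which is then taken to vary like the other strains. Single cells also carried much of some B6 levels: 1 tuft cell of B6 mouse 1 held 22 of its 37 Cfap45 UMIs and another 13 of its 34 Dnah6 UMIs, and the cell of 36 members in B6 mouse 2 held 16 of its 38 Dnah6 UMIs. Without the 17 cells that held at least 10 UMIs and 30% of a member's UMIs in their mouse, 7 of the 12 calls for NOD against B6 held. Cfap45 stood at -3.14 and kept its call, Dnah5 moved to -4.34, and Dnah6 (-1.23, edgeR adjusted p = 0.0745), Dnah12, Tekt4, Tekt5 and Rsph1 lost theirs. BALB/c against B6 gave 2 higher, Cfap57 (1.50 ± 0.39) and Dnah8 (1.50 ± 0.31), and 4 lower, Cfap45, Drc1, Dnah6 and Rsph1 (background 6.22% and 6.64%). NOD against BALB/c gave 0 higher (2 at an unadjusted edgeR p below 0.05, 0 by DESeq2) and 3 lower, Dnah5 (-2.88 ± 0.45), Cfap74 (-2.60 ± 0.46) and Rsph9 (-2.05 ± 0.42), against 5.15% and 6.12%. None of the calls in these 2 contrasts held in every fit that left out a mouse, and Dnah6 for BALB/c against B6 was also lost without the cell of 36 members. Cell types moved with strain: tuft-gated cells numbered 9 and 11 in NOD, 122 and 178 in BALB/c and 116 and 95 in B6 mice, and neuroendocrine cells 0 and 3, 7 and 6, and 14 and 23 in the same order of strains. Levels per cell and the mix of types cannot be told apart in these sums.

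**Figure D5:**
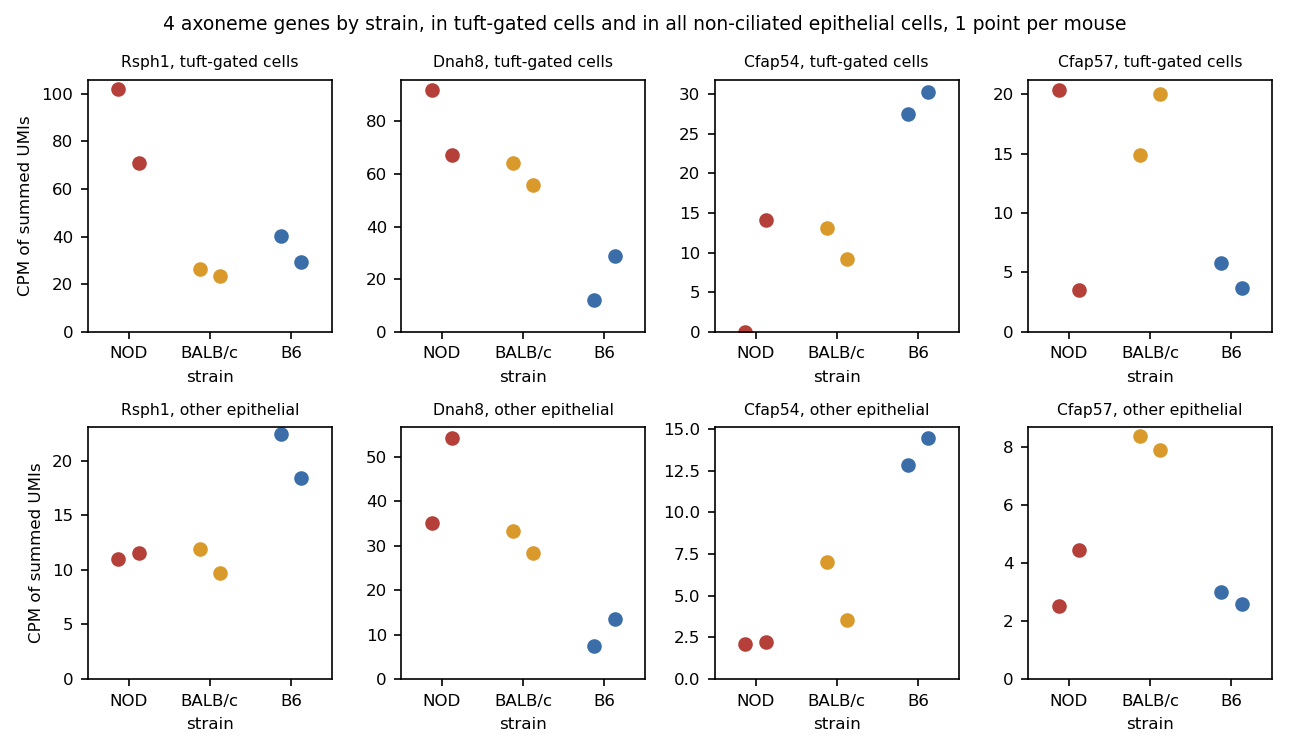
Level in CPM of Rsph1, Dnah8, Cfap54 and Cfap57 in tuft cells (top) and in all non-ciliated epithelial cells, tuft cells included (bottom), by strain, 1 point per mouse. Rsph1 is higher in NOD than in B6 mice in tuft cells and lower over all non-ciliated cells, while Dnah8 is higher in NOD and BALB/c than in B6 mice in both.

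Tuft cells alone were therefore compared between strains, a choice made after those results, with 19 members tested among 11611 genes. Dnah8 had 91.7 and 67.2 CPM in tuft cells of NOD mice and 64.1 and 55.7 CPM in those of BALB/c mice, against 12.2 and 28.8 CPM in those of B6 mice. Its log2 fold change was 1.96 ± 0.42 for NOD against B6 and 1.56 ± 0.32 for BALB/c against B6 (edgeR adjusted p = 0.013 and 0.015). Dnah8 was thus higher in NOD and BALB/c than in B6 mice inside 1 cell type too, but neither call held whichever mouse was left out. In those fits its log2 fold change ranged from 1.42 to 2.63 for NOD against B6 and from 1.04 to 2.26 for BALB/c against B6.

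Rsph1 had 102 and 70.7 CPM in tuft cells of NOD mice and 26.2 and 23.4 CPM in those of BALB/c mice, against 40.3 and 29.5 CPM in those of B6 mice (1.28 ± 0.30 for NOD against B6, 1.79 ± 0.30 for NOD against BALB/c). The first of these is the opposite of its direction over all non-ciliated cells (-0.78 for NOD against B6). NOD against B6 gave these 2 genes as higher and 0 as lower (4 at an unadjusted edgeR p below 0.05, 0 by DESeq2; background 7.78% and 6.13%), and NOD against BALB/c gave Rsph1 alone (0.491% and 0.474%). BALB/c against B6 gave Dnah8, Cfap57 (1.86 ± 0.49) and Cfap298 (0.94 ± 0.25) as higher and Cfap54 (-1.39 ± 0.37) as lower (4.71% and 4.75%). Dnah5 did not pass between strains within tuft cells, with a log2 fold change of -1.52 ± 0.58 for NOD against B6 (edgeR adjusted p = 0.132). The NOD values rest on 20 tuft cells, and each of these 7 calls was lost in 2 to 4 of the 6 fits that left out a mouse.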

How the data were processed

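Single-cell RNA and hashtag libraries of 1 capture (10x Genomics 3' v3.1, per the labels) were used. The deposited values are raw UMI counts per gene and hashtag in each barcode; per the submitters' processing notes, the software was Cell Ranger 7.0.0 and the build mm10; the annotation release and whether introns were counted are not given in the sources used here. The 61 genes, the gates and the lists were chosen with earlier results of these data known.

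Barcodes with at least 500 genes and under 15% mitochondrial UMIs were kept. A barcode was assigned to a mouse when its leading hashtag held at least 80% of the UMIs of the pool's 6 hashtags; 9 further hashtag features were not used. The title of the hashtag library gives both NOD hashtags the same replicate number, and they were taken as 2 mice, as the design states. No doublet caller was run, and the hashtag rule removes mixed barcodes of different mice only. The barcode list held 0 duplicates, and the RNA and hashtag counts of the 1 capture were read from the same barcodes. A cell was placed in the gate with the highest share of its markers detected, at least 50%, among 18 gates; this rule was set after the data were seen. Gate names are those of the marker lists. Other epithelial cells had at least 2 of 4 epithelial markers, were not placed in a gate of a non-epithelial type and did not pass the ciliated gate.

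Counts were summed per mouse and tested with edgeR 4.0.16 (TMM, filterByExpr, robust quasi-likelihood; R 4.3.3), with the mouse as block between cell types and no block between strains, and Benjamini-Hochberg adjustment at 0.05 over all genes of a fit. The mouse was the replicate. DESeq2 1.42.0, no filter on low counts, leaving out each mouse, a hashtag share of 90%, under 10% mitochondrial UMIs, 1 more gate marker and thinning to 4000 UMIs were alternatives; leaving out single cells, tuft cells or cells of several gates were added after the data were seen. The SE is the log2 fold change divided by the root of F. The scripts were checked on simulated counts. By the rule for named genes, the text gives the 20 members highest in ciliated cells, the highest 2 of each role, members with their highest level in another gate of at least 20 cells, and those called between strains over all epithelial cells; others were named because they passed a test or complete a group. All 61 matched GENCODE M21 (GRCm38) by identifier, as protein-coding genes on 18 chromosomes; 3 overlap a protein-coding gene on the same strand. Promoters are those of RefSeq on GRCm38.p6.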

Additional observations from a re-analysis of the deposited data

Results flagged for a closer look

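In all, 6 values of single mice stood apart from those of the other mice by more than Dixon's 95% limit, among 67 groups of 6 mice tested; chance flags about 1 in 20 groups. In ciliated cells these were Cfap299 in B6 mouse 1 (1411 CPM) and Cfap54 in NOD mouse 2 (684 CPM). In other epithelial cells they were Cfap299 (16.3 CPM), Cfap44 (4.14 CPM) and Dnah11 (7.76 CPM) in B6 mouse 2 and Dnah12 in B6 mouse 1 (9.86 CPM). One cell of B6 mouse 2 that held 15 UMIs of Cfap299 stood among the other epithelial cells with UMIs of 36 members and 6 of 13 ciliated markers, and without it Cfap299 stood at 12.4 CPM, Cfap44 at 3.63 CPM and Dnah11 at 6.48 CPM, each still above the highest of the other mice (8.71, 1.27 and 4.64 CPM). Outside the epithelial comparisons, Drc1 had 116 CPM (exact 95% Poisson interval 96.6 to 138) in thymocyte-gated barcodes, with a UMI in 52 of 128, against 0.636 CPM in myeloid or dendritic barcodes.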

How the results depend on the processing

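Members higher in ciliated cells numbered 54 to 56 under every alternative. DESeq2 size factors shifted the median log2 fold change of all genes in that comparison by -0.11. Members lower there were 1 under DESeq2, 1 with no filter on low counts and 0 to 1 when a mouse was left out (1 without BALB/c mouse 2). With ciliated cells that passed no other gate (4 mice), Dnah8 turned to -0.44. Over all epithelial cells, no filter on low counts gave 22 members for NOD against B6, 14 for BALB/c against B6 and 8 for NOD against BALB/c; leaving out a mouse gave 1 to 6, 0 to 3 and 0 to 1, and a hashtag share of 90%, or leaving out the cell with the most Dnah5 UMIs, the non-ciliated cell with the most members or the 17 cells that carried 30% or more of a member, gave 0 for NOD against BALB/c. Without ciliated cells, no filter gave 20, 11 and 7, leaving out those 17 cells gave 7 for NOD against B6, leaving out a mouse gave 8 to 9, 0 to 8 and 0 to 3, and a limit of 10% mitochondrial UMIs gave 3 for BALB/c against B6. Within ciliated cells, no filter gave 2 for NOD against B6 and 2 for BALB/c against B6, cells that passed no other gate gave 1 for NOD against B6 and 1 for NOD against BALB/c with 1 mouse each of NOD and B6, taken to vary like the BALB/c mice, and leaving out a mouse gave 0 to 2 (2 without B6 mouse 1), 0 to 1 and 0. Within tuft cells, DESeq2 gave 2 for BALB/c against B6, and leaving out a mouse gave 0 to 3, 0 to 7 (7 without either NOD mouse) and 0 to 1. In microfold-gated cells, DESeq2 and each mouse left out gave 1 and remaining cells without tuft cells gave 0, and in immature mTEC leaving out a mouse gave 1 to 6 (6 without either NOD mouse). Shares of all genes called under these settings are not given here, so the counts of members have no background beside them. The cause of these moves was not tested. The difference in ciliated share, in percentage points, ranged between -0.233 and 4.30 for NOD minus B6 when a mouse was left out (below 0 without NOD mouse 1) and between -4.33 and 0.250 for NOD minus BALB/c (above 0 without BALB/c mouse 1, or NOD mouse 2 at 0.230).

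A replicate block over the mouse numbers of BALB/c and B6 gave 12 members over all epithelial cells, 1 higher and 11 lower, and 0 within ciliated cells; NOD numbers could not be paired. Same-numbered mice deviated together with a correlation of 0.0896 over all epithelial cells and -0.181 in ciliated cells. With 2 mice per strain, these values cannot tell whether same-numbered mice share more than a number. The block with crossed numbers gave 5 calls within ciliated cells. Shares of all genes called under these blocks are not given here either. Without the mouse as block (no replicate block), 54 members were higher in ciliated cells. Of the values of single genes, 1414 kept their direction and side of the threshold, 171 lost a call, 3 gained one and 1 reversed. NOD sums rest on 11 ciliated and 20 tuft cells, which limits every contrast with NOD.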

Other observations

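The 3 barcodes of the ciliated gate without an assigned mouse entered no comparison. Beside Drc1, thymocyte-gated barcodes held Dnah8 at 47.3 CPM (a UMI in 32 of 128), against 1.27 CPM in myeloid or dendritic barcodes; these barcodes came through a depletion of CD45+ cells and were not compared between strains. B or plasma cell barcodes held Rsph1 at 26.3 CPM. Among the markers used for the ciliated gate, Fam183b reached 296 CPM in neuroendocrine-gated cells, against 1206 CPM in ciliated cells and 2.60 CPM in tuft cells.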
